A study of Mus musculus with 12 samples.

Results

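A set of 10 genes that p53 switches on directly was followed in BV2 microglial cells, an immortalized mouse line, carrying a control shRNA or an shRNA against Anxa2. The members, Cdkn1a, Mdm2, Ccng1, Bax, Bbc3, Pmaip1, Trp53inp1, Sesn1, Zmat3 and Phlda3, were taken by gene name as textbook p53 targets and were each found in 1 row, 10 of the 21834 genes in the deposited count table. All cells belonged to stable lines made by lentiviral infection and puromycin selection, 1 line with the control shRNA (shCtrl, the control line) and 1 line with 1 Anxa2 shRNA (shAnxa2, the knockdown line). Each line was left untreated (CTRL) or was taken through oxygen-glucose deprivation and reoxygenation (OGD/R; OGDR in group names), labelled as 4 h without oxygen and glucose and then 12 h of reoxygenation; the study's methods give BV2 cells a longer reoxygenation, so its length is uncertain. The 4 groups, shCtrl-CTRL, shCtrl-OGDR, shAnxa2-CTRL and shAnxa2-OGDR, had 3 libraries each. Groups follow the sample titles, since another label of the same samples marks every CTRL library as WT and every OGDR library as knockdown. With 1 line per shRNA, an effect of the knockdown and a difference between lines cannot be told apart.

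The protein p53 is a transcription factor that DNA damage, hypoxia and other stresses stabilize. It binds a pair of half-sites in DNA and raises genes that halt the cell cycle, trigger mitochondrial apoptosis, restrain growth signaling or, through Mdm2, mark p53 itself for degradation. Oxygen and glucose withdrawal is a stress known to engage this response in cells of the brain.

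Some of the members carry p53 half-sites close to a transcription start, and these stretches are shown because p53 acts on its targets through such sites. Promoter windows of 300 bases, from 250 before the start to 50 after it, were taken from RefSeq for GRCm38.p6, the build of the coordinates below. The p53 consensus half-site of 10 bases was searched on both strands. A full site was 2 half-sites at most 13 bases apart, with at most 2 mismatches in all. Among all 32851 windows 8.36% held a half-site and 2.12% a full site. For 7 members 11 windows were found, of which 5 held a half-site and 3 a full site. Each stretch of 100 bases is printed 5′ to 3′ on the gene's strand, with the bases of half-sites in capitals, including those with mismatches that belong to a full site.
Cdkn1a, chr17:29090877-29090976, plus strand, full site: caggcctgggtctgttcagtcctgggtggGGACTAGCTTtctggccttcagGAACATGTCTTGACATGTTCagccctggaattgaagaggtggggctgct
Bax, chr7:45467047-45467146, minus strand, full site: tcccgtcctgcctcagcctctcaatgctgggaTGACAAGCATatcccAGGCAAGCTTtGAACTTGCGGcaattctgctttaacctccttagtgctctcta
Sesn1, chr10:41887214-41887313, plus strand, full site: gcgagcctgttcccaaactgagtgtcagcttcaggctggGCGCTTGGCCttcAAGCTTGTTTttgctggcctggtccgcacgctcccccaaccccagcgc
Ccng1, chr11:40755417-40755516, minus strand, half-site: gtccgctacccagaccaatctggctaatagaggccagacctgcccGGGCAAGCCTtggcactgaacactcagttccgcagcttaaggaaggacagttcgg
Mdm2, chr10:117710890-117710989, minus strand, half-site: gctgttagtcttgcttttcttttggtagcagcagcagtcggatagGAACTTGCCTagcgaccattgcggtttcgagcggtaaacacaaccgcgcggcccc
The Cdkn1a stretch holds 2 half-sites without mismatch, at 73 and 51 bases before the upstream start. None of the 3 Bbc3 windows and not the 1 Phlda3 window held a half-site or a full site by these rules. This says nothing about sites with more mismatches in these windows, or about sites elsewhere in these genes. Pmaip1, Trp53inp1 and Zmat3 were not among the entries used.

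Library totals ranged from 19521877 to 27288843 counts. Anxa2, the targeted gene, had 3938 to 7717 counts in the shCtrl libraries and 357 to 1052 in the shAnxa2 libraries, so the line labels fitted the data. All 12 microglia markers passed the expression filter, while 1 of 6 astrocyte, 1 of 6 neuron and 2 of 6 oligodendrocyte markers did. Aqp4, Snap25, Syt1 and Mog had 0 counts in every library, and the oligodendrocyte markers summed to 4.23 to 6.81 CPM per library, beside at most 1.16 CPM for astrocyte and 1.48 CPM for neuron markers. Their part in the results was not tested. For genes that low oxygen induces, the shAnxa2 libraries did not follow their treatment labels in the way the control line did. Of 12 hypoxia-induced genes, chosen after their values were seen, OGD/R raised 9 and lowered 1 in the control line (edgeR, adjusted p under 0.05). In the shAnxa2 libraries labelled OGDR 0 were higher and 9 lower than in those labelled CTRL, and Hk2, P4ha1 and Car9 were not called. The others were Ankrd37, Bnip3, Egln3, Ldha, Ndrg1, Pdk1, Pgk1, Slc2a1 and Vegfa. Egln3 was scarce, at a mean of 1.43 CPM in shCtrl-OGDR and less in the other groups. Over all genes 32.4% were higher and 31.0% lower in the control line, and 28.2% and 26.8% in the shAnxa2 line. Bnip3, a hypoxia-induced mitophagy gene, had 67.1 ± 8.76 CPM in shCtrl-CTRL and 215.5 ± 33.5 CPM in shCtrl-OGDR (SD, n = 3). It had 181.6 ± 10.1 CPM in the libraries labelled shAnxa2-CTRL and 39.7 ± 2.62 CPM in those labelled shAnxa2-OGDR. Whether the 2 treatment labels of the shAnxa2 line are exchanged was not tested, and every direction given below for that line follows the labels as deposited. Of the 5239 genes called in both lines, 98.6% had opposite directions, so a member with opposite directions in the 2 lines did what most called genes did.

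Of the members, 9 passed the filter of 0.5 CPM (counts scaled by the library total and its TMM factor) in at least 3 libraries. Trp53inp1 passed it through shCtrl-OGDR and shAnxa2-CTRL, the groups where it was high, so its place in the counts below rests on them. Phlda3, which competes with Akt for membrane lipids, had 2 counts in 1 shCtrl-CTRL library and 0 in the other 11, and a count of 0 allows up to 0.110 to 0.154 CPM. Calls below are at an adjusted p under 0.05, by the quasi-likelihood test of edgeR with p-values adjusted after Benjamini and Hochberg over the 11626 genes tested. RNA came from whole cultures, in which fewer expressing cells and less RNA per cell cannot be told apart.

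In the control line 3 of the 9 tested members were higher after OGD/R, the cell death gene Bbc3, Trp53inp1 and the growth restraint gene Sesn1, and none was lower. Among all genes 63.4% were called, 32.4% higher and 31.0% lower, a larger share than among the members. The libraries of the 2 groups did not overlap for the same 3 members, and for 68.0% of all genes. The median log2 fold change of the 9 members was 0.07, beside 0.01 over all genes, a value that the library scaling keeps near 0. With a fold of at least 1.5 required as well, 2 members were called, Bbc3 and Trp53inp1, where 20.1% of all genes were. The same number of members, 3, was called when only the shCtrl libraries were fitted.

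Between the shAnxa2 libraries labelled OGDR and CTRL, 6 of the 9 members were called, where 55.0% of all genes were, 28.2% higher and 26.8% lower. Bax was higher, and Cdkn1a, Ccng1, Bbc3, Trp53inp1 and Sesn1 were lower after OGD/R. For these 6 the groups did not overlap, as for 58.9% of all genes. The median log2 fold change was −0.27, beside 0.00 over all genes, again kept near 0 by the scaling. With upper-quartile factors in place of TMM, log2 fold changes shifted by a median of −0.045 over all genes. Of all calls 43.6% were then higher, against 51.2%, and the same number of members, 6, was called. At a fold of 1.5, Cdkn1a, Bbc3 and Trp53inp1 were called, and 12.1% of all genes were.

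Without OGD/R, 4 members differed between the lines. Cdkn1a, Mdm2 and Trp53inp1 were higher and Bax was lower in shAnxa2 than in the control line, where 59.2% of all genes were called, 29.5% higher and 29.7% lower. This count was 5 in 5 of the 8 fits with other factors, filters, tools or designs, which also called Ccng1. At a fold of 1.5, 2 were called, Cdkn1a and Trp53inp1, as were 15.6% of all genes. The groups did not overlap for these 4 and for Zmat3, and for 63.6% of all genes. After OGD/R, 5 members differed, with Mdm2 higher and Ccng1, Bbc3, Trp53inp1 and Sesn1 lower in the knockdown line, where 67.9% of all genes were called, 33.8% higher and 34.2% lower. At a fold of 1.5, 3 were called, Bbc3, Trp53inp1 and Sesn1, and 26.3% of all genes were. The groups did not overlap for 4 of these 5, all but Ccng1, and for 69.9% of all genes. The difference of the OGD/R changes between lines, tested as an interaction, was called for 6 members, where 70.0% of all genes were called, 34.9% with a positive and 35.1% with a negative value. It was positive for Bax and negative for Cdkn1a, Ccng1, Bbc3, Trp53inp1 and Sesn1. With the fold of 1.5 Cdkn1a, Bbc3 and Trp53inp1 remained, 3 members, where 41.8% of all genes were called. These comparisons share groups, so their counts are not independent of one another.

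**Figure D1:**
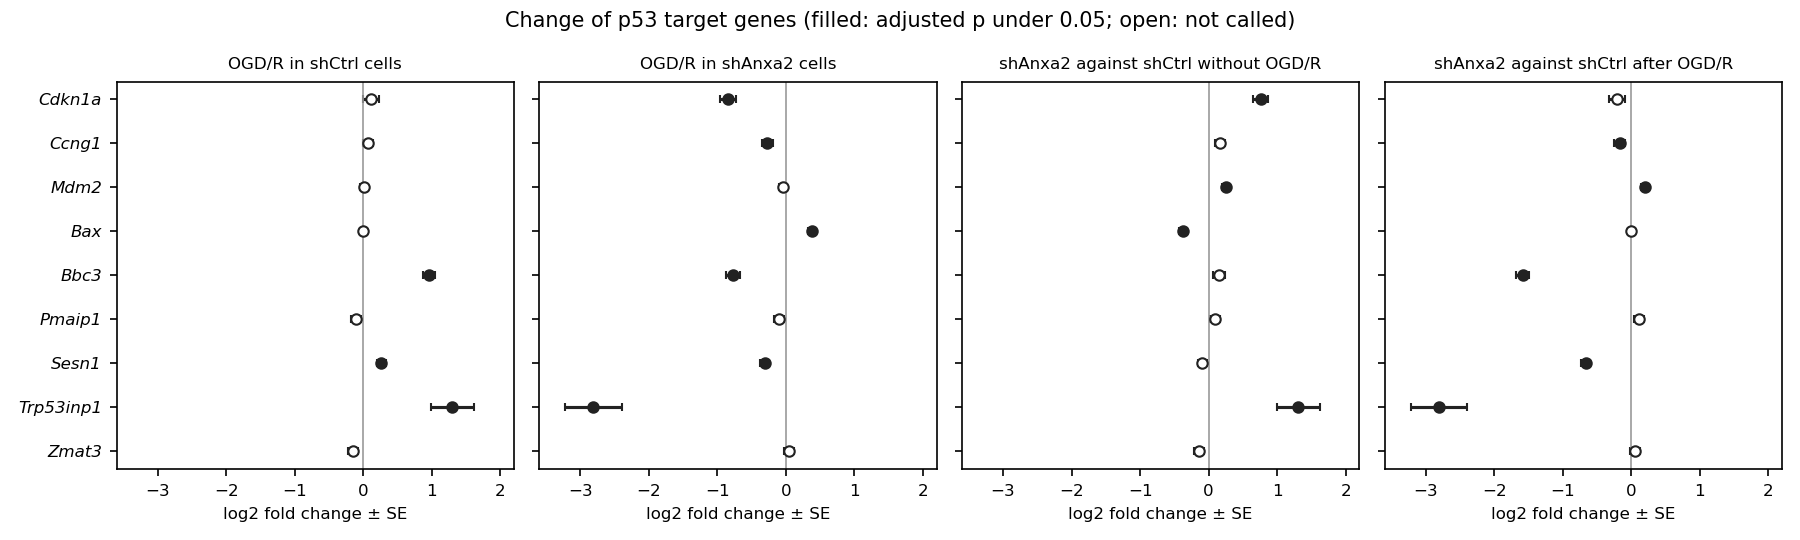
Each row is a p53 target gene and each panel a comparison, with the log2 fold change on the x axis, horizontal bars of 1 standard error (SE), filled points for calls at an adjusted p under 0.05 and open points for genes not called. Bbc3 and Trp53inp1 lie to the right after OGD/R in the control line and to the left in the 2 panels that set the shAnxa2-OGDR libraries against another group.

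Bbc3 (ENSMUSG00000002083, chromosome 7, 16042318 to 16052130, plus strand, coordinates of the deposited table, for which the submitters' notes name mm39) encodes Puma, a BH3-only protein that frees Bax and Bak to act at mitochondria. It had 17.6, 17.7 and 20.5 CPM in the shCtrl-CTRL libraries and 34.5, 34.8 and 40.1 CPM in the shCtrl-OGDR libraries. The knockdown line had 23.1, 19.9 and 19.3 CPM in the CTRL libraries and 12.4, 11.01 and 13.04 CPM in the OGDR libraries. The shCtrl-OGDR libraries were the highest and the shAnxa2-OGDR libraries the lowest, without overlap with any other group, while the 2 CTRL groups overlapped. OGD/R raised Bbc3 1.95-fold in the control line (log2 fold change 0.96, standard error, SE, 0.0878, adjusted p = 1.06e-09, edgeR). In the knockdown line it was lower after OGD/R, at a log2 fold change of −0.77 (SE 0.0987, adjusted p = 4.99e-07, edgeR). The lines differed after OGD/R by −1.59 on the log2 scale (SE 0.0943, adjusted p = 3.29e-13, edgeR), a ratio of 0.333, and without OGD/R by 0.15 (adjusted p = 0.160, edgeR), which did not pass the test.

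Bax (ENSMUSG00000003873, chromosome 7, 45111121 to 45116322, minus strand) encodes the protein that opens the outer mitochondrial membrane. In the control line it had 79.0, 73.3 and 79.5 CPM without OGD/R and 76.5, 80.7 and 74.5 CPM after it. The shAnxa2 libraries held 57.8, 59.9 and 61.0 CPM without OGD/R and 78.3, 74.97 and 78.7 CPM after it. The other 3 groups lay together and overlapped, with the shAnxa2-CTRL libraries below them all. Bax was lower in shAnxa2-CTRL than in shCtrl-CTRL, at a log2 fold change of −0.37 (SE 0.0525, adjusted p = 1.50e-06, edgeR). It was higher after OGD/R in the knockdown line by 0.37 on the log2 scale (SE 0.0530, adjusted p = 2.19e-06, edgeR). Its exons share 12.2% of their bases with those of Gm45808, a gene model on the same strand in GENCODE M21, so part of its counts is uncertain.

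Pmaip1 (ENSMUSG00000024521, chromosome 18) encodes Noxa, a BH3-only protein that neutralizes Mcl-1. Its group means ran from 43.1 ± 4.41 CPM in shCtrl-OGDR to 49.5 ± 4.60 CPM in shAnxa2-CTRL (SD, n = 3), and neighbouring groups overlapped. The log2 fold changes of Pmaip1 lay between −0.10 and 0.11 in the 4 pairwise comparisons, and none passed the test. Leaving out shCtrl-OGDR replicate 3 gave −0.18 after OGD/R in the control line (adjusted p = 0.0477, edgeR) and 0.18 between the lines after OGD/R (adjusted p = 0.0420, edgeR). Leaving out shAnxa2-CTRL replicate 3 gave 0.18 between the lines without OGD/R (adjusted p = 0.0445, edgeR).

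**Figure D2:**
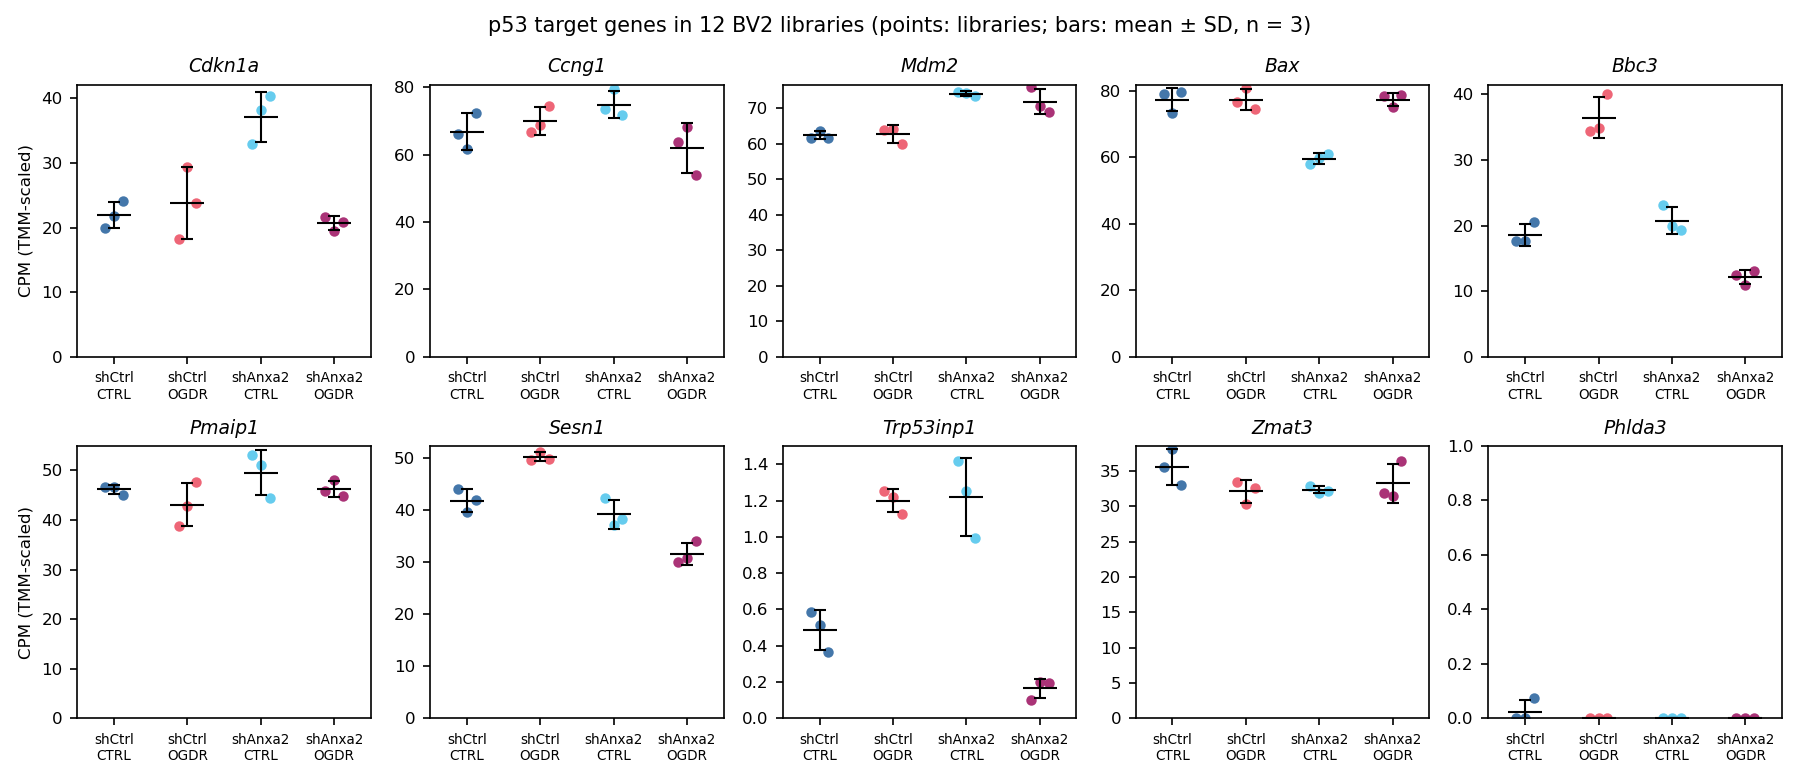
Each panel shows a p53 target gene, with TMM-scaled CPM on a y axis that starts at 0, 1 point per library and bars for the mean and SD of the 3 libraries in a group. Bbc3, Sesn1 and Trp53inp1 have their lowest libraries in shAnxa2-OGDR, Cdkn1a its highest in shAnxa2-CTRL, Bax its lowest there, and Phlda3 is near 0.

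Cdkn1a (ENSMUSG00000023067, chromosome 17, 29309950 to 29319701, plus strand) encodes p21, the inhibitor of cyclin-dependent kinases through which p53 halts the cell cycle. It had 20.0, 21.8 and 24.1 CPM in shCtrl-CTRL and 18.3, 29.4 and 23.8 CPM in shCtrl-OGDR. The libraries of the knockdown line held 32.9, 38.3 and 40.4 CPM without OGD/R and 21.7, 19.6 and 20.95 CPM after it. The shAnxa2-CTRL libraries were above all others, and the other 3 groups overlapped. Without OGD/R Cdkn1a was 1.69-fold higher in shAnxa2 than in the control line (log2 fold change 0.76, SE 0.113, adjusted p = 3.44e-06, edgeR). After OGD/R it was lower in the knockdown line than without it, at a log2 fold change of −0.85 (SE 0.116, adjusted p = 1.30e-06, edgeR). In the control line the log2 fold change of 0.12 (adjusted p = 0.396, edgeR) did not pass the test, and it rested on single libraries of shCtrl-OGDR, at −0.07 without replicate 2 and 0.28 without replicate 1 (adjusted p = 0.0239, edgeR). After OGD/R the lines differed by −0.20 (adjusted p = 0.131, edgeR), not called, and the value ran from −0.37 without shCtrl-OGDR replicate 1 (adjusted p = 0.00402, edgeR) to −0.02 without replicate 2 (adjusted p = 0.912, edgeR). Without a filter on low counts it was −0.22 (adjusted p = 0.0200, edgeR). A transcript model of unknown function on the other strand shares 7.68% of the exon bases of Cdkn1a.

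Mdm2 (ENSMUSG00000020184, chromosome 10, 117524780 to 117546663, minus strand) encodes the ubiquitin ligase that binds p53 and sends it for degradation. It had 61.8, 63.8 and 61.7 CPM in shCtrl-CTRL and 64.1, 64.3 and 59.9 CPM in shCtrl-OGDR. The knockdown line had 74.7, 74.4 and 73.5 CPM without OGD/R and 76.0, 70.6 and 69.2 CPM after it. Every shAnxa2 library was above every shCtrl library, and within each line the treatments overlapped. The lines differed on the log2 scale by 0.25 without OGD/R (SE 0.0519, adjusted p = 0.000230, edgeR) and by 0.19 after it (SE 0.0523, adjusted p = 0.00215, edgeR). The interaction of Mdm2 was −0.05 (SE 0.0736, adjusted p = 0.518, edgeR).

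Ccng1 (ENSMUSG00000020326, chromosome 11, 40639379 to 40646138, minus strand) encodes cyclin G1, which acts with the phosphatase PP2A on Mdm2. Its mean went from 66.8 ± 5.47 to 70.0 ± 4.08 CPM with OGD/R in the control line and from 74.9 ± 4.14 to 62.0 ± 7.41 CPM in the knockdown line (SD, n = 3). All neighbours in the order of the groups overlapped. Ccng1 was lower after OGD/R in the knockdown line, at a log2 fold change of −0.27 (SE 0.0739, adjusted p = 0.00346, edgeR), and of −0.18 without shAnxa2-OGDR replicate 3 (adjusted p = 0.0386, edgeR). Its difference between lines after OGD/R, −0.17, was near the threshold (adjusted p = 0.0439, edgeR), and it was −0.08 without shAnxa2-OGDR replicate 3 (adjusted p = 0.335, edgeR) and −0.13 without shCtrl-OGDR replicate 3 (adjusted p = 0.180, edgeR). Leaving out shCtrl-OGDR replicate 2, shAnxa2-OGDR replicate 1 or shCtrl-CTRL replicate 1 gave adjusted p-values of 0.0645, 0.0514 and 0.0517 (edgeR). Without OGD/R the difference between lines of 0.16 did not pass (adjusted p = 0.0553, edgeR), and 4 of 12 fits that left out a library called it, with 0.23 without shCtrl-CTRL replicate 3 (adjusted p = 0.0191, edgeR), 0.20 without shAnxa2-CTRL replicate 3, and 0.16 without shAnxa2-OGDR replicate 2 or 3. It was also called in 5 of 8 other fits, at 0.17 to 0.20, with median-of-ratios (adjusted p = 0.0497, edgeR) or upper-quartile factors (0.0222), without a filter (0.00907), with a filter of 1 CPM (0.0474) and with only the 2 groups (0.0247), and not in DESeq2, limma voom or the replicate block.

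Sesn1 (ENSMUSG00000038332, chromosome 10, 41685931 to 41784420, plus strand) encodes Sestrin 1, a stress protein that restrains mTORC1. In the control line it had 44.0, 39.6 and 42.0 CPM without OGD/R and 49.7, 51.3 and 49.9 CPM after it. The knockdown line had 42.4, 37.1 and 38.4 CPM without OGD/R and 30.1, 30.9 and 34.1 CPM after it. As for Bbc3, shCtrl-OGDR was the highest group and shAnxa2-OGDR the lowest, each without overlap, and the CTRL groups overlapped. OGD/R moved it on the log2 scale by 0.27 in the control line (SE 0.0648, adjusted p = 0.000986, edgeR) and −0.31 in the knockdown line (SE 0.0685, adjusted p = 0.000489, edgeR). After OGD/R the lines differed by −0.67 (SE 0.0672, adjusted p = 4.22e-09, edgeR).

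Trp53inp1 (ENSMUSG00000028211, chromosome 4, 11156431 to 11174379, plus strand) encodes a nuclear protein of stress and autophagy that aids p53. It was scarce, with 14, 14 and 10 counts in shCtrl-CTRL and 32, 32 and 22 in shCtrl-OGDR. The shAnxa2 libraries held 29, 26 and 25 counts without OGD/R and 2, 5 and 4 counts after it. Trp53inp1 passed the filter through shCtrl-OGDR, at 1.13 to 1.25 CPM, and shAnxa2-CTRL, at 0.99 to 1.42 CPM. It had 0.37 to 0.58 CPM in shCtrl-CTRL and 0.10 to 0.20 CPM in shAnxa2-OGDR. The shCtrl-OGDR and shAnxa2-CTRL libraries overlapped at the top, shCtrl-CTRL lay between, and shAnxa2-OGDR was the lowest without overlap. The ratio of summed counts per scaled library total was 2.49 after OGD/R in the control line (95% exact interval 1.68 to 3.75, counting error only). In the knockdown line it was 0.140 (95% exact interval 0.0670 to 0.264, counting error only), from 80 counts to 11. The fitted log2 fold changes were 1.30 (SE 0.313, adjusted p = 0.000847, edgeR) and −2.81 (SE 0.411, adjusted p = 3.44e-06, edgeR). No member had a wider spread of group means, 7.40-fold, but it is also the tested member with the fewest counts.

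Zmat3 (ENSMUSG00000027663, chromosome 3, 32388941 to 32420163, minus strand) encodes a zinc-finger protein that binds RNA. Its group means ran from 32.1 ± 1.67 CPM in shCtrl-OGDR to 35.6 ± 2.57 CPM in shCtrl-CTRL (SD, n = 3), and no comparison passed the test. Without shCtrl-CTRL replicate 3 it came to −0.20 on the log2 scale for OGD/R in the control line (adjusted p = 0.0304, edgeR), −0.19 between the lines without OGD/R (adjusted p = 0.0419, edgeR) and 0.24 as the interaction (adjusted p = 0.0480, edgeR). The ratio of the highest to the lowest group mean was 1.11 for Zmat3, 1.15 for Pmaip1, 1.19 for Mdm2 and 1.21 for Ccng1, below the lower quartile of 1.23 over all genes tested. It was 1.30 for Bax and 1.59 for Sesn1, on either side of the median of 1.40. Above the upper quartile of 1.72 were Cdkn1a at 1.79, Bbc3 at 2.999 and Trp53inp1.

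Levels of different genes were compared per kilobase of annotated exons. Bax had the highest mean level of the members, 46.2 CPM per kb over the 12 libraries, followed by Ccng1 at 19.49, Pmaip1 at 16.9 and Mdm2 at 13.3 CPM per kb. Bbc3 and Sesn1 were close, at 10.4 and 10.2 CPM per kb, and the range of Bbc3 over libraries took in that of Sesn1. Cdkn1a had 7.30, Zmat3 2.91 and Trp53inp1 0.119 CPM per kb.

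**Figure D3:**
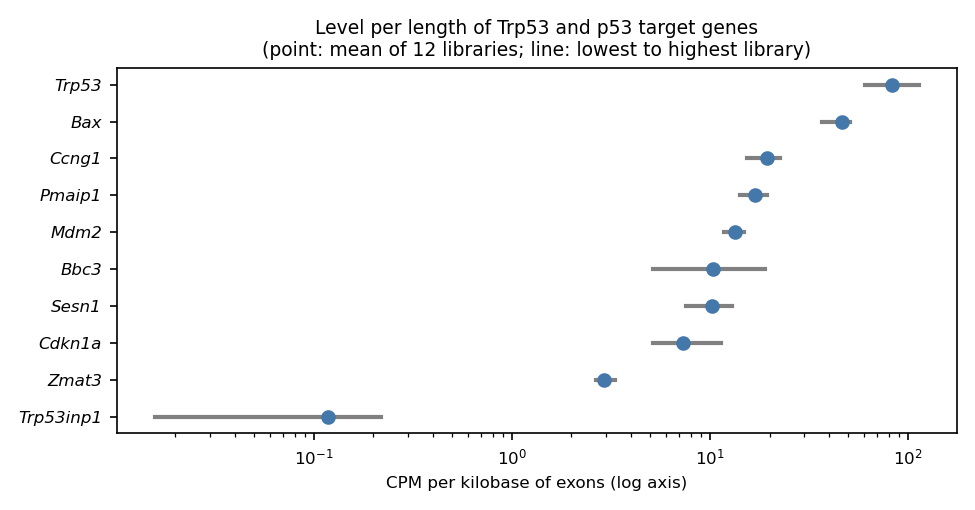
The x axis is the level in CPM per kilobase of exons on a log axis, with a point for the mean of 12 libraries and a line from the lowest to the highest library, for Trp53 and the 9 tested p53 target genes. Trp53 is the highest, at 82.5 CPM per kb, and Trp53inp1 the lowest, at 0.119.

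Over the 12 libraries the values of Bbc3 and Sesn1 rose and fell together (Pearson r = 0.936 on log2(CPM + 0.1)). Bbc3 and Trp53inp1 had an r of 0.818, Trp53inp1 and Sesn1 of 0.778, and Cdkn1a and Bax of −0.795, the lowest of the 36 pairs. Libraries of a group share their treatment and line, so these values mostly describe 4 groups. For Cdkn1a the most similar other genes were Sec61b (r = 0.923), Eno1 (0.922) and Def6 (0.919). For Mdm2 they were Adora2b (0.955), Tnni3k (0.954) and Clec4d (0.949). For the mean of the standardised values of the 8 members with at least 1 CPM they were Gpcpd1 (0.930), Dnajb4 (0.917) and Pkp2 (0.914).

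Trp53 itself, which encodes p53, had another order of the groups than Bbc3, Sesn1 and Trp53inp1. It had 331.8, 360.3 and 333.6 CPM in shCtrl-CTRL and 246.4, 267.7 and 263.0 CPM in shCtrl-OGDR. The libraries of the knockdown line held 303.0, 283.1 and 308.1 CPM without OGD/R and 423.4, 426.0 and 458.2 CPM after it. The group with the most Trp53 RNA, shAnxa2-OGDR, was the group with the least Bbc3, Sesn1 and Trp53inp1, and the group with the least, shCtrl-OGDR, had the most Bbc3 and Sesn1. Of the other tested members, Cdkn1a and Ccng1 also had their lowest mean in shAnxa2-OGDR, at 20.7 and 62.0 CPM. Pmaip1 and Zmat3 had their lowest mean in shCtrl-OGDR instead, at 43.1 and 32.1 CPM. Mdm2 had a mean of 71.9 CPM in shAnxa2-OGDR and 62.8 CPM in shCtrl-OGDR, and Bax 77.3 and 77.2 CPM. OGD/R moved Trp53 on the log2 scale by −0.40 in the control line (SE 0.0524, adjusted p = 4.04e-07, edgeR) and 0.55 in the knockdown line (SE 0.0524, adjusted p = 5.84e-09, edgeR). These are RNA levels, while p53 is regulated largely as a protein, which was not measured in these libraries.

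Mdm4, the partner of Mdm2 that masks p53, was lower in the knockdown line in both treatments, by −0.34 and −0.36 on the log2 scale (adjusted p = 7.93e-05 and 3.07e-05, edgeR), where Mdm2 was higher. Cdkn2a, which encodes the Mdm2 inhibitor ARF beside p16, ran from 71.5 to 76.7 CPM in the libraries of shCtrl-CTRL, from 96.8 to 106.1 CPM in shCtrl-OGDR, from 99.4 to 109.8 CPM in shAnxa2-CTRL and from 82.6 to 98.6 CPM in shAnxa2-OGDR, and all 4 comparisons passed the test. Ppm1d, a phosphatase that ends p53 signaling, was lower after OGD/R in the control line (log2 fold change −0.23, adjusted p = 0.00328, edgeR) and was not called in the knockdown line (0.13, adjusted p = 0.0925, edgeR). Of 18 tested genes listed as p53 and its regulators, OGD/R raised 6 and lowered 10 in the control line, and 8 were higher and 4 lower in the knockdown line. The shares over all genes were 32.4% higher and 31.0% lower in the control line, and 28.2% and 26.8% in the knockdown line.

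**Figure D4:**
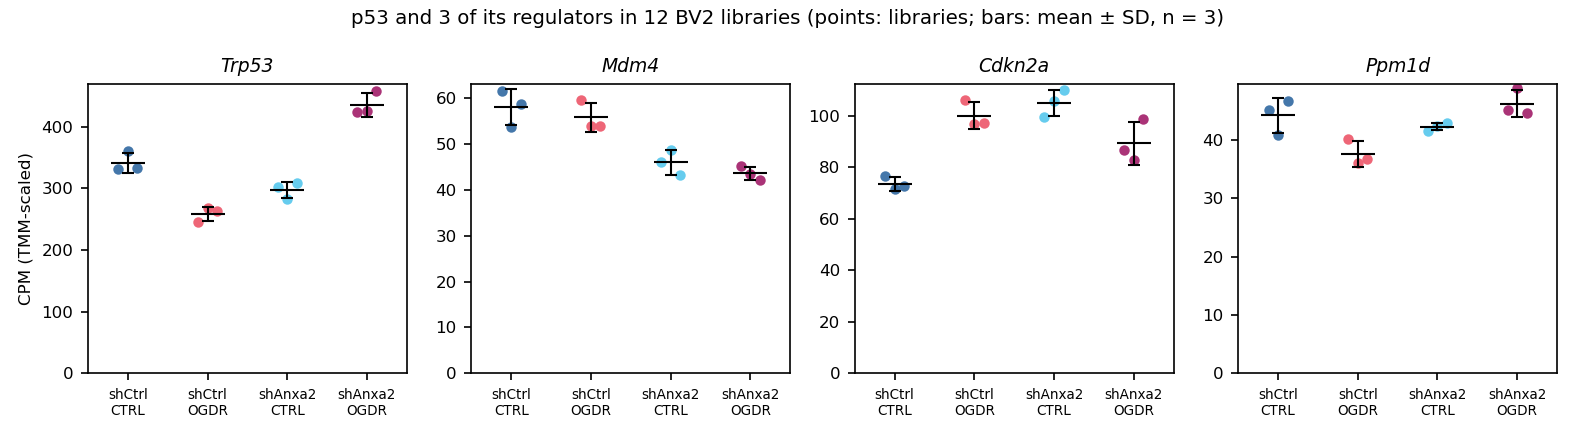
Each panel shows TMM-scaled CPM on a y axis that starts at 0, with 1 point per library and bars for the mean and SD of 3 libraries, for Trp53, Mdm4, Cdkn2a and Ppm1d. Trp53 is highest in shAnxa2-OGDR, between 423.4 and 458.2 CPM, and lowest in shCtrl-OGDR, between 246.4 and 267.7 CPM.

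Other p53 targets, 42 listed and 37 tested, split in both directions. After OGD/R 32.4% of all genes were higher and 31.0% lower in the control line, and 28.2% and 26.8% in the knockdown line. Of the other targets, 16 were higher and 13 lower in the control line (median log2 fold change 0.07), and 12 were higher and 13 lower in the knockdown line (−0.01). Among those higher in the control line were Gdf15, a stress cytokine, by 1.59 on the log2 scale (adjusted p = 5.05e-11, edgeR), the death receptor Fas by 1.93 (adjusted p = 1.45e-08, edgeR) and Sesn2, the paralog of Sesn1, by 0.83 (adjusted p = 2.00e-10, edgeR). Lower were Aen, an apoptosis-enhancing nuclease, by −1.32 (adjusted p = 6.49e-13, edgeR) and Bid, a BH3-only protein, by −0.997 (adjusted p = 5.34e-14, edgeR). Of the 22 called in both lines, all 22 had opposite directions, as did Bbc3, Trp53inp1 and Sesn1, the 3 members called in both. Of all genes called in both lines 98.6% did, so these counts do not set p53 targets apart. In the control line, of 9 tested targets in arrest 2 were higher and 4 lower, of 8 in apoptosis 3 and 5, of 8 in DNA repair 5 and 1, and of 12 in metabolism and redox 6 and 3.

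RNA was also counted for genes whose proteins p21 binds, and for genes of G2 and mitosis lowered downstream of p21. Whether p21 had a part in their changes was not tested. All 9 cyclins, cyclin-dependent kinases and Pcna on the list were lower after OGD/R in the control line (31.0% of all genes were), and Cdkn1a was not called there. Ccne2, a cyclin of entry into S phase, was lower by −1.56 on the log2 scale (adjusted p = 5.19e-12, edgeR). In the knockdown line 8 of the 9 were higher and none lower, where 28.2% of all genes were higher and Cdkn1a was lower. All 8 that were called in both lines had opposite directions, as did 98.6% of all genes called in both. Of 12 genes of G2 and mitosis, 2 were higher and 8 lower in the control line, and 8 were higher and 1 lower in the knockdown line. Over all genes 32.4% were higher and 31.0% lower in the control line, and 28.2% and 26.8% in the knockdown line.

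**Figure D5:**
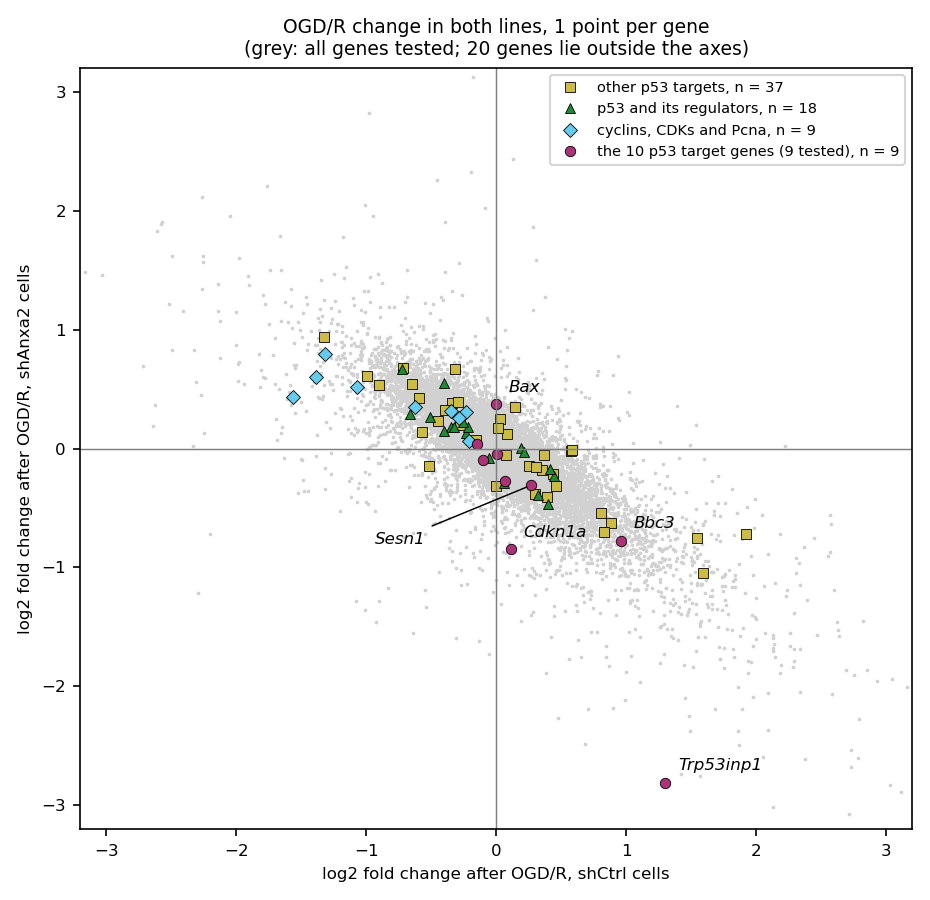
Each point is a gene, with its log2 fold change after OGD/R in the control line on the x axis and in the knockdown line, as labelled, on the y axis; grey points are all 11626 genes tested, of which 20 lie outside the axes, and colored symbols are the gene lists. Most grey points run from the upper left to the lower right, Bbc3, Sesn1 and Trp53inp1 lie in the lower right, and the cyclins, kinases and Pcna lie in the upper left.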

How the data were processed

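RNA of BV2 lines was sequenced in 12 libraries, 3 per group. The authors deposited raw counts of reads per gene for 21834 genes, without normalization; the submitters' processing notes name HISAT2 2.0.4 and mm39, and the counting tool and annotation are not given in the sources used here for these cells. Neither is use of strand, so reads of a gene and an antisense partner cannot be told apart. The 12 deposited per-sample columns of counts scaled by library were not used.

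Counts were tested with edgeR 4.0.16 (R 4.3.3): TMM normalization, 11626 genes that reached 0.5 CPM in 3 or more libraries, a single quasi-likelihood fit to the 12 libraries with a coefficient per group, and Benjamini-Hochberg adjustment over all genes tested. A call is an adjusted p under 0.05, and a second rule adds a fold of at least 1.5. The common biological coefficient of variation was 5.35%. The steps were run on counts simulated with a common spread and 199 changed genes among 11482 tested, of which 95.5% were called. With so few changed genes, this cannot tell how scaling and calling behave where most genes are called. The labels name no sequencing batch, and one that ran with the groups could not be separated from them. The study describes biological replicates, but the labels do not say whether libraries came from separate cultures, so the p-values may measure technical spread only. Libraries within a group differed by more than counting error.

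The members and lists were chosen with earlier results of these data known. Named genes are the 10 members, Trp53, Mdm4, Cdkn2a, Ppm1d and Anxa2, up to 2 genes per list, direction and comparison with the largest called change at a mean of at least 1 CPM, of which some are given, and the 3 genes most like Cdkn1a, Mdm2 and the mean of the members by Pearson r. Hypoxia-induced genes were added after their values were seen, to describe the groups beside their treatment labels, and they are no test of the labels. Exon lengths and overlaps came from GENCODE M21 of GRCm38, and promoter windows from RefSeq. Alternatives were other size factors (median of ratios, upper quartile), other filters (none, 1 CPM), DESeq2 1.42.0, limma 3.58.1 voom, 2-group fits, a replicate block and leaving out each library. Python 3.11.15 and matplotlib 3.10.9 drew the plots.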

Additional observations from a re-analysis of the deposited data

Results flagged for a closer look

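The OGD/R change differed between the lines, by the interaction term of the edgeR model at an adjusted p under 0.05, for 6 of the 9 tested p53 targets, where 70.0% of all genes were called. Given as the log2 change in the knockdown line minus that in the control line, the difference was −4.11 for Trp53inp1 (standard error 0.519, from 2 to 32 counts per library), −1.74 for Bbc3 (standard error 0.132), −0.96 for Cdkn1a (standard error 0.164), −0.58 for Sesn1 (standard error 0.0943), −0.34 for Ccng1 (standard error 0.104) and 0.37 for Bax (standard error 0.0739). Their directions follow the treatment labels of the shAnxa2 libraries as deposited, in which hypoxia-induced genes ran opposite to those of the control line.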

How the results depend on the processing

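Of the 45 member comparisons, 24 were called, and 23 of these kept their direction and their call under every alternative run. The exception, Ccng1 between the lines after OGD/R, kept its direction and lost its call in 6 of its alternatives, at −0.17 with a replicate block (adjusted p = 0.0514) and between −0.19 and −0.08 in the 5 fits without a library that lost it. Of 417 alternatives of the comparisons not called, 18 passed the threshold and 29 changed sign without a call. With a fold of at least 1.5 required, the members called numbered 3 after OGD/R in the knockdown line, 2 between the lines without OGD/R, 3 between the lines after OGD/R and 3 for the interaction, in place of 6, 4, 5 and 6 (12.1%, 15.6%, 26.3% and 41.8% of all genes).

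Signs turned only in comparisons that were not called. The largest main value among them was 0.12, for Cdkn1a after OGD/R in the control line, which turned when shCtrl-OGDR replicate 2 was left out. Bax after OGD/R in the control line was −0.0045 with median-of-ratios size factors, −0.0049 without a filter and −0.0042 in DESeq2, and −0.0379 to 0.0247 when a library was left out. Bax between the lines after OGD/R was 0.0011 with median-of-ratios size factors, 0.0007 in DESeq2 and 0.0011 with only the 2 groups, and −0.0249 to 0.0327 when a library was left out. Zmat3 after OGD/R in the knockdown line was −0.0072 with upper-quartile factors and −0.0280 to 0.0805 when a library was left out, and between the lines after OGD/R −0.0180 to 0.0904. The interaction of Pmaip1 was −0.0644 with upper-quartile factors, −0.0178 without a filter, −0.0086 with a filter of 1 CPM and −0.0688 to 0.0809 when a library was left out. After OGD/R in the control line Cdkn1a ranged from −0.0729 to 0.278 and Mdm2 from −0.0089 to 0.0397 when a library was left out. The causes were not tested.

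Deviations of same-numbered libraries had an r of −0.051 to 0.135 over 18 pairs (median 0.002). Over 36 pairs with different numbers it was −0.099 to 0.082 (median 0). Little shared deviation by number was thus seen, which does not tell whether the cultures were run in pairs. With the replicate block 7355, 6373, 6872, 7890 and 8114 genes were called in the 5 comparisons, against 7372, 6392, 6882, 7898 and 8136, and 4 members in place of 5 between the lines after OGD/R; the other member counts did not move. Depth limits Phlda3, which could not be tested, and Trp53inp1, at 32 counts or fewer per library.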

Other observations

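The KEGG term for p53 signaling, as the deposited table lists it, held 72 genes, 63 of them tested and 8 of them members. After OGD/R 22 were higher and 27 lower in the control line, and 22 were higher and 20 lower in the knockdown line. Over all genes the shares were 32.4% higher and 31.0% lower in the control line, and 28.2% and 26.8% in the knockdown line. Without OGD/R 19 were higher and 21 lower in shAnxa2 than in the control line, and 28 were higher and 21 lower after it. The shares over all genes were 29.5% higher and 29.7% lower without OGD/R, and 33.8% and 34.2% after it.

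Of 37 tested other p53 targets, 14 were higher and 10 lower in shAnxa2 than in the control line without OGD/R. Over all genes 29.5% were higher and 29.7% lower. Gdf15 was at 20.1 ± 3.06 CPM in shAnxa2-CTRL and 5.03 ± 0.127 CPM in shCtrl-CTRL (SD, n = 3), Gadd45a, a gene of growth arrest after DNA damage, at 5.42 ± 0.249 and 1.40 ± 0.314 CPM, and Fas at 6.71 ± 1.36 and 1.68 ± 0.540 CPM. Each was higher in 3 of 3 shAnxa2-CTRL libraries than in any shCtrl-CTRL library. These groups did not overlap for 63.6% of all genes, and these genes were named for their large called changes. The log2 fold changes were 2.0 for Gdf15, 1.95 for Gadd45a and 2.001 for Fas (edgeR, adjusted p = 9.41e-13, 1.91e-08 and 1.15e-08). Lower were Aen, by −0.85 on the log2 scale, and Bid, by −0.47 (edgeR, adjusted p = 1.34e-09 and 3.07e-08). In metabolism and redox 8 of 12 tested targets were higher and 3 lower, in apoptosis 2 of 8 and 3, in arrest 2 of 9 and 2, and in DNA repair 2 of 8 and 2. Of 18 tested genes listed as p53 and its regulators, 4 were higher and 10 lower in shAnxa2-CTRL than in shCtrl-CTRL. Among the lower were Trp53bp1 (log2 fold change −0.46), Atm (−0.43), Trp53rkb (−0.35) and Chek1 (−0.35). Among the higher were Atr (0.585), Cdkn2a (0.51) and Rchy1 (0.36).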
